A study of Mus musculus with 947 samples.

Results

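The 6 mature miRNAs described here are the 5p and 3p arms of miR-483, miR-675 and miR-335. They were chosen by name, because their hairpins lie inside Igf2, H19 and Mest, and the rule that picks them uses no measured value. They are 6 of 1076 miRNAs, and of 7883 noncoding RNAs in all, in the table of the aging mice, and 6 of 795 miRNAs in the table of the parabiotic mice. Both tables hold reads per M (mega) mapped reads (rpmm) of small RNA libraries from whole tissue, so fewer cells of a type and less RNA per cell cannot be told apart.

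The aging cohort held 769 libraries of 16 tissues from C57BL/6JN mice at 10 ages, namely 1 month and every 3 months from 3 to 27. Each of the 160 groups of a tissue and an age had 1 to 6 libraries (median 5), 553 from males and 216 from females, and females were taken up to 21 months only. The parabiosis cohort held 176 libraries of gonadal fat (GAT), heart, kidney, limb muscle (tibialis anterior), liver and mesenteric fat (MAT) from 30 male mice in 15 pairs joined surgically for 5 weeks, with 6 to 8 libraries per tissue and group. Young mice joined to young mice (IY) were C57BL/6J mice of 3 or 4.5 months. Young mice joined to aged mice (HY) were 4 months old and all of another strain than the IY mice, so strain and an aged partner cannot be told apart when HY is set against IY. Aged mice joined to young (HA) or to aged mice (IA) were 19 months old and C57BL/6J, except 1 HA mouse and 1 IA pair, which were C57BL/6JN. These strain names follow the study's list of samples. Its summary of animals gives C57BL/6J and C57BL/6JN the other way round for the joined mice, which could not be settled here.

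Igf2, H19 and Mest are imprinted genes: a cell reads them mainly from the copy inherited from one parent. Igf2, which encodes a growth factor of the fetus, and Mest are read from the paternal copy, while H19 is a long noncoding RNA read from the maternal copy and known for holding back growth. All 3 are highly active before birth and are switched down in most tissues after it. A miRNA hairpin is cut out of its host transcript and yields a 5p and a 3p arm, and bases 2 to 8 of an arm, the seed, pair with target mRNAs. The parent of origin of these reads was not measured.

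The 6 mature sequences are given because their seeds set which mRNAs each arm can pair with. They come from RefSeq (GRCm38.p6), in which all 6 were found, and run 5′ to 3′ with the seed in capitals.
mmu-miR-483-5p: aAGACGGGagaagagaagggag
mmu-miR-483-3p: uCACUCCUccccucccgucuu
mmu-miR-675-5p: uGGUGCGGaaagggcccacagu
mmu-miR-675-3p: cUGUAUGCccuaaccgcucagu
mmu-miR-335-5p: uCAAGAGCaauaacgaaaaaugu
mmu-miR-335-3p: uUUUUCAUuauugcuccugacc
The 6 seeds differ from each other, and no other of the 1679 mature mouse miRNAs in the RefSeq table of sequences shares any of them. The arms of miR-483 and miR-675 hold 54.5% to 63.6% G and C, against 30.4% and 36.4% in the 5p and 3p arms of miR-335.

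The hairpins show both arms in capitals on either side of the loop.
Mir483: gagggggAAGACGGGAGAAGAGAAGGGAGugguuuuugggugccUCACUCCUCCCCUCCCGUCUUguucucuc
Mir675: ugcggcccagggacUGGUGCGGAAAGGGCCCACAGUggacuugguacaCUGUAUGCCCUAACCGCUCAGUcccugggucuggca
Mir335: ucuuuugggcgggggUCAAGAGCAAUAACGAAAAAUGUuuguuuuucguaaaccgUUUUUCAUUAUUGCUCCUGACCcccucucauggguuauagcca
Mir483 lies on the minus strand at chr7:142654924-142654996 (GRCm38.p6), in an intron of the 7 Igf2 transcripts that span it. Mir675 lies on the same strand at chr7:142577064-142577147, 77.8 kb away, in an exon of 3 and an intron of 1 of the 4 H19 transcripts that span it. Mir335 lies on the plus strand at chr6:30741299-30741396, in an intron of the 7 Mest transcripts that span it.

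Libraries held a median of 20.1 M reads in both cohorts, from 2.29 to 167 M in the aging mice and from 9.20 to 47.6 M in the parabiotic mice. The smallest level that 3 reads give was 0.149 rpmm in the median aging library and 1.31 rpmm in the shallowest. The miRNA profile was closest to that of another tissue in 10 aging and 5 parabiosis libraries, the latter all of MAT. Arms were tested in a tissue where at least 10% of its libraries reached 1 rpmm. Of the 96 pairs of an arm and a tissue, 36 passed: miR-335-5p in all 16 tissues, miR-483-5p in 9, miR-335-3p in 7, miR-483-3p in 2, and both arms of miR-675 in limb muscle alone.

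The 3 loci were highest in different tissues. Over both sexes, miR-335-5p had its highest medians in brain and white fat. They were 108 rpmm in brain, 100.1 in GAT, 62.4 in subcutaneous fat (SCAT) and 30.98 in MAT, with a lowest median of 1.38 rpmm in marrow. Heart (27.1 rpmm), lung (24.9) and liver (18.9) came next, then kidney (10.9), limb muscle (8.40), bone (6.75), pancreas and spleen (both 6.65), small intestine (5.47), brown fat (BAT, 5.32) and skin (4.92). By its mean it stood 120th of 1076 miRNAs in GAT and 171st in brain. Among the first 6 tissues of this order none differed from the next beyond their spread, while lung was above liver, liver above kidney, and skin above marrow (permutation tests of 100000 shuffles, adjusted p 0.0234, 0.000129 and 0.000129). Its 3p arm followed at a lower level, with 5.12 rpmm in brain, 3.64 in GAT and 1.78 in SCAT.

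By medians over both sexes, miR-483 and miR-675 were highest in limb muscle. miR-483-5p reached a median of 2.60 rpmm in limb muscle, from 0.595 to 135, ahead of brain at 2.196 rpmm and heart at 1.25, and these 3 tissues each differed from the next (adjusted p 0.0004, 0.00213 and 0.000129). No other tissue had a median above 0.525 rpmm over both sexes, and the medians in liver and pancreas were 0. Kidney was not alike in the sexes. Its 12 females of 3 to 21 months had a median of 4.59 rpmm, above that of limb muscle, and its 25 males 0.0483. miR-675-5p had a median of 1.48 rpmm in limb muscle, from 0.248 to 13.7, against 0.209 in heart, 0.182 in skin and 0.130 in bone. miR-675-3p was at 0.687 rpmm in limb muscle and 0.400 in heart. Of the 90 neighbouring pairs of tissues over the 6 arms, 22 differed at an adjusted p under 0.05. In 1 of them, miR-483-5p in marrow and kidney, the median was higher in marrow (0.121 and 0.0842 rpmm) while the mean of log2(rpmm + 1) was higher in kidney (0.21 and 0.63, permutation test, adjusted p = 0.00796). The order of the other neighbours is within their spread.

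**Figure D1:**
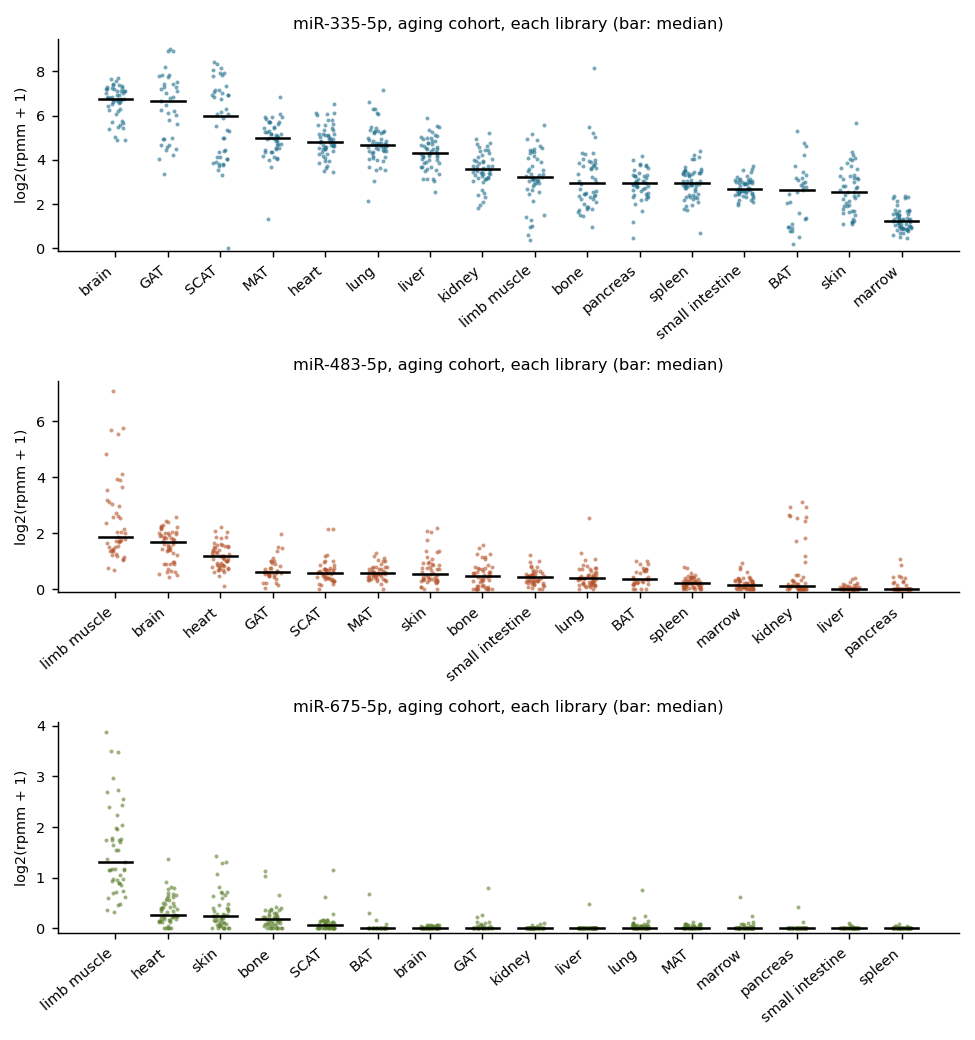
Levels of miR-335-5p, miR-483-5p and miR-675-5p, as log2(rpmm + 1), in every library of the aging cohort, with tissues ordered by their median (black bar) and each point a library. By these medians, over both sexes, miR-335-5p was highest in brain and white fat. The other 2 arms were highest in limb muscle, where miR-483-5p ran from 0.595 to 135 rpmm.

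The arms were unequal. The 5p arm took 96.0% of the reads of miR-335, 77.6% of those of miR-483 and 60.1% of those of miR-675 over all aging libraries. miR-335-5p was above miR-335-3p in 768 of 769 libraries. The share of miR-675 was not the same in its 2 main tissues, with 66.8% of reads from the 5p arm in limb muscle and 39.2% in heart. As a description over libraries of a tissue, which share depth and composition, the log2 levels of the 2 arms went together with r = 0.94 for miR-483 in 51 kidneys and r = 0.94 for miR-335 in 37 GAT libraries.

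The youngest mice were set against young adults because the host genes are growth genes of early life. At 1 month against 3 months, 3 of 32 pairs of an arm and a tissue passed and all 3 were higher at 1 month (limma on log2(rpmm + 1), adjusted over all miRNAs of a tissue), beside 1.76% of all miRNAs in the 14 tissues tested. The median difference of the 32 pairs was 0.65 on the log2 scale, against 0.11 for all miRNAs. miR-675-5p rose in limb muscle, miR-483-5p in skin and miR-335-5p in pancreas. With edgeR, none of the 32 pairs passed.

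In limb muscle, miR-675-5p stood at 5.47, 10.1, 10.4 and 13.7 rpmm in the 4 mice of 1 month and at 1.07, 1.92, 2.11, 2.37, 2.97 and 4.28 rpmm in the 6 of 3 months. The groups did not overlap. The difference of 1.66 ± 0.38 (log2, SE) had an adjusted p of 0.00421, the 8th smallest of 546 miRNAs in this tissue, of which 5.31% were called. It was 1.98 with the plate as a covariate (adjusted p = 0.00154). With edgeR the adjusted p was 0.076, and with a pseudocount of 0.1 rpmm it was 0.060.

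miR-483-5p in the same muscles stood at 8.15, 27.5, 45.3 and 50.2 rpmm at 1 month against 4.85 to 7.74 rpmm at 3 months, again with no overlap, yet its difference of 2.05 ± 0.77 did not pass (adjusted p = 0.0815). miR-483-3p, at 1.22, 7.78, 9.23 and 10.3 rpmm against 1.21 to 2.49 rpmm, missed as well (difference 1.32 ± 0.42, adjusted p = 0.0533). Both passed with the reads scaled to all miRNA reads (adjusted p 0.00606 and 5.87e-05), with median-ratio scaling, with DESeq2 and with 3, 6 and 9 months as the baseline. The lowest value of each arm at 1 month came from the same library, in which 2.56% of reads were miRNA. miR-675-3p differed by 0.32 ± 0.33 (adjusted p = 0.587).

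The 1-month limb muscle libraries were thinner than those of 3 months. They held 5.78 to 18.7 M reads, 2.56% to 21.4% of them miRNA, against 13.5 to 29.8 M and 17.8% to 35.9%. The summed level of the 2 limb muscle markers (miR-206-3p and miR-133a-3p) was 40918 to 271820 rpmm against 147336 to 289510, and that of the 2 fibroblast markers (miR-199a-3p and miR-214-3p) was 516 to 6353 against 2718 to 6149. The part of these in the results was not tested.

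The test of limb muscle against the mean of the other tissues was made over all 14 in one fit, where 5 of 84 pairs passed beside 3.42% of all miRNAs. The 1-month difference was larger in limb muscle for miR-675-5p by 1.53 ± 0.13 (adjusted p = 2.76e-24), for miR-483-3p by 1.17 ± 0.19 (2.20e-07) and for miR-483-5p by 1.79 ± 0.36 (7.37e-05). It was also larger for miR-675-5p in skin, by 0.51 ± 0.13 (0.0135), and for miR-335-3p in brain, by 0.81 ± 0.29 (0.0380). This fit pools the spread of all tissues, and its SE for miR-675-5p is below the 0.38 of the fit within limb muscle. miR-675-5p passed the filter in 1 tissue and miR-483-3p in 2. Where an arm is at or near 0 it has little room to change. The outcome for these 2 arms was thus largely set by where they are found, and is no support by itself. Skin miR-675-5p lies under the filter of its own tissue.

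**Figure D2:**
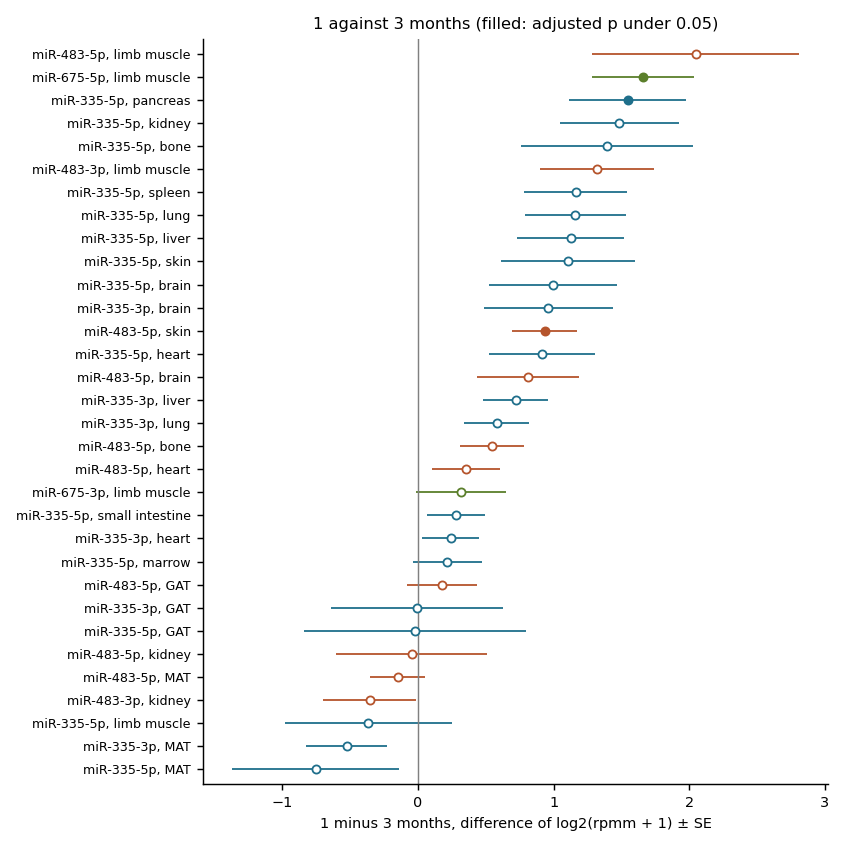
Difference between 1 and 3 months, in log2(rpmm + 1) with its SE, for the 32 pairs of an arm and a tissue tested, with filled points where the adjusted p was under 0.05. Most points lie to the right of 0, and the 3 filled ones are miR-675-5p in limb muscle (1.66), miR-335-5p in pancreas (1.55) and miR-483-5p in skin (0.93).

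In skin, miR-483-5p stood at 0.915, 1.55, 2.35, 3.11 and 3.26 rpmm at 1 month and at 0.323 to 0.976 rpmm in the 6 mice of 3 months, so that 1 library of 1 month fell within the older range. The difference was 0.93 ± 0.24 (adjusted p = 0.0166), beside 3.49% of skin miRNAs called. It did not pass with edgeR (0.184), with a pseudocount of 0.1 rpmm (0.194), in males alone (0.145) or without any 1 of 4 of the 11 libraries (up to 0.120). miR-483-3p (0.640 to 1.36 against 0.0881 to 0.315 rpmm) and miR-675-5p (0.518 to 1.71 against 0.0881 to 0.388 rpmm) did not overlap between these ages in skin either. Both are under the filter there, and with no filter they passed, by 0.73 (adjusted p = 2.22e-05) and 0.71 (adjusted p = 0.00968).

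In pancreas, miR-335-5p stood at 8.82, 10.6, 11.4, 12.7 and 12.8 rpmm at 1 month and at 0.366, 3.04, 3.55, 4.18 and 8.61 rpmm at 3 months. The groups did not overlap, and the difference was 1.55 ± 0.43 (adjusted p = 0.0328), beside 2.53% of pancreas miRNAs. The library at 0.366 rpmm had a miRNA profile closest to limb muscle and a summed level of the 3 pancreas markers (miR-216a-5p, miR-217-5p and miR-375-3p) of 56.9 rpmm, where the tissue's median at 3 months was 21891. Without it the difference was 1.14 and did not pass (adjusted p = 0.143). The call was lost without any 1 of 5 of the 10 libraries, and in 9 of 13 other settings (adjusted p up to 0.235).

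miR-335-5p was also higher at 1 month in kidney (1.49 ± 0.44), lung (1.16 ± 0.37), spleen (1.16 ± 0.38) and liver (1.12 ± 0.39), none of which passed (adjusted p 0.0748, 0.0806, 0.0988 and 0.110). Kidneys held 7.72 to 35.997 rpmm at 1 month and 2.95 to 14.3 rpmm at 3 months, which overlap. In limb muscle, MAT and GAT its estimates were -0.37, -0.75 and -0.02, also short of the test.

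Fragments of H19 itself were in the aging table, and of its 7 transcripts the 1 with the highest mean was used. Their median was highest in limb muscle (6.22 rpmm), followed by bone (1.73), heart (1.33) and skin (0.555). The means of the 16 tissues ran with those of miR-675-5p at r = 0.94, a description over tissues that share libraries with the miRNA. The hairpin of miR-675 lies in an exon of 3 H19 transcripts. Whether its reads were also counted as H19 fragments was not tested, so the 2 levels may not be independent. Between 1 and 3 months the H19 fragments averaged 39.5 ± 10.5 (SD, n = 4) against 10.1 ± 5.63 rpmm (n = 6) in limb muscle, 5.80 ± 2.98 against 1.90 ± 0.917 rpmm in bone (n = 6 each), and 3.85 ± 2.23 (n = 5) against 0.794 ± 0.295 rpmm (n = 6) in skin. Exact two-sided permutation tests in 14 tissues, added after the data were seen, gave adjusted p of 0.0444, 0.0303 and 0.0303 in these 3, and none of the other 11 tissues passed.

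After 3 months, the calls for lower levels were all in limb muscle. At 21 months against 3 months, the contrast of the study between old and young adults, 4 of 33 pairs passed, 1 higher and 3 lower, beside 3.86% of all miRNAs. Over all 8 later ages 9 of 262 tests passed, 1 higher and 8 lower, beside 2.76%. Limb muscle is a tissue where 17.9% of all miRNAs were called at 21 months, 22.5% at 15, 14.5% at 9 and 12.8% at 27.

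miR-675-5p in limb muscle, 1.07 to 4.28 rpmm at 3 months, was at 0.248, 0.281, 0.375, 0.520 and 0.851 rpmm at 21 months, with no overlap (difference -1.20, adjusted p = 0.0108). It did not pass in males alone (0.148), with median-ratio scaling (0.152) or with a pseudocount of 10 rpmm (0.0938). miR-335-5p was at 16.0, 19.6, 20.3, 21.1, 29.1 and 30.3 rpmm at 3 months and at 0.520, 5.29, 7.59, 9.13 and 9.34 rpmm at 21 months, likewise with no overlap (difference -1.92, adjusted p = 0.0134). Without the female library at 0.520 rpmm, replicate 28, the difference was -1.42 and did not pass (adjusted p = 0.111). miR-675-3p fell by 0.89 at 21 months (adjusted p = 0.0389), a call lost in 8 of 12 other settings, among them both edgeR and DESeq2.

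miR-335-5p was lower at 9 months by 2.02 (adjusted p = 0.00691) and at 15 months by 2.48 (adjusted p = 0.00104). Its values at 15 months were 0.294, 0.924, 4.56, 6.61 and 10.9 rpmm, all below those of 3 months. miR-675-3p fell by 1.22 at 15 months (adjusted p = 0.00275) and by 1.23 at 27 months (adjusted p = 0.0140), and miR-483-3p fell by 1.12 at 9 months (adjusted p = 0.0358). With the plate as a covariate the 9-month calls of miR-335-5p (0.123) and miR-483-3p (0.501) and the 15-month calls of miR-335-5p (0.0824) and miR-675-3p (0.149) were not made. Leaving out libraries under 5 M reads, an alternative chosen after seeing the data, removed the 2 calls of 9 months (adjusted p 0.124 and 0.207).

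The lowest miR-335-5p values came from shallow limb muscle libraries. The library at 0.294 rpmm held 1 read of it among 3.40 M reads, and the 2 lowest at 9 months, 1.03 and 1.87 rpmm, held 3 and 5 reads in 2.93 and 2.68 M. The library of 1.03 rpmm was also the one with 135 rpmm of miR-483-5p. At 21 months the fibroblast markers summed to 486 to 3439 rpmm and the limb muscle markers to 184905 to 604652 rpmm, and the part of either was not tested.

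**Figure D3:**
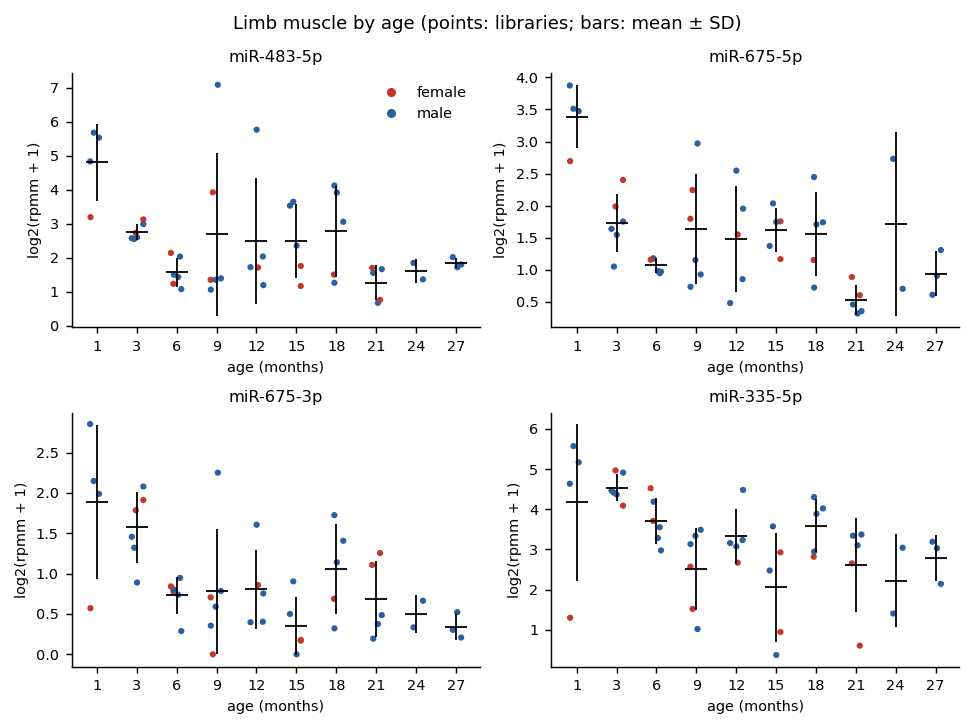
Limb muscle levels of miR-483-5p, miR-675-5p, miR-675-3p and miR-335-5p, as log2(rpmm + 1), by age in months, with each point a library (red female, blue male) and black bars the mean and SD. miR-483-5p and miR-675-5p stand highest at 1 month, with medians of 36.4 and 10.3 rpmm, and miR-335-5p falls from a median of 20.7 rpmm at 3 months to 4.56 rpmm at 15 months.

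The single call for a rise after 3 months was miR-335-5p in small intestine (duodenum) at 21 months. It stood at 2.87, 3.24, 4.06, 7.03 and 7.46 rpmm at 3 months and at 7.11, 8.63, 10.1, 10.5, 10.96 and 12.2 rpmm at 21 months, so 1 old library lay within the young range. The difference of 0.94 ± 0.22 (adjusted p = 0.00492) passed under each of the 11 other settings and without any 1 library. No other age was called. At 24 months the 3 libraries stood at 4.49 to 7.02 rpmm, within the range of 3 months (difference 0.29, limma, adjusted p = 0.697). In this tissue 13.5% of all miRNAs were called, and the summed small intestine markers (miR-194-5p and miR-215-5p) ran from 4580 to 84941 rpmm at 21 months against 38940 to 52200 rpmm at 3 months, whose part was not tested.

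Over all ages, the level was ranked against age in each tissue, and 2 of 36 pairs had a rho past 0.5 in either direction, beside 8.06% of all miRNAs. miR-483-5p in skin had rho = -0.597 (47 libraries, p = 1e-05, the smallest that the 100000 shuffles of a permutation test can give, adjusted p = 0.000201; r = -0.547, permutation p = 5e-05). Dropping the pair of libraries furthest out in age left r at -0.546, and dropping the mice of 1 month left rho at -0.462. miR-335-5p in limb muscle had rho = -0.523 (47 libraries, permutation adjusted p = 0.0017; r = -0.445, permutation p = 0.00168; r = -0.446 without the furthest pair), and -0.474 with plate means removed. At rho between these and 0, 6 more pairs had an adjusted permutation p under 0.05. Of these, SCAT miR-335-3p alone had a positive rho (0.416, with r = 0.424). Many other miRNAs passed this limit in the tissues of these pairs, from 80 of 593 in lung to 164 of 546 in limb muscle. The 8.06% above is for the rho limit only. The count of these pairs therefore does not show whether members moved more than other miRNAs. The oldest groups held no females, so a rank over all libraries mixes age with sex. SCAT miR-335-3p was also lower in females, as given below. Its rho was 0.464 in males alone, and 0.237 over both sexes without the oldest groups, which held males only.

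Female and male mice were compared from 1 to 21 months with age in the model. In this comparison 6 of 36 pairs passed, 3 higher and 3 lower in females, beside 4.45% of all miRNAs. Both arms of miR-483 were higher in female kidney, both arms of miR-335 were lower in female GAT, miR-335-3p was lower in female SCAT, and miR-335-5p was higher in female skin.

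In kidney, miR-483-5p was at or near 0 in males and higher in most adult females. The 25 males of 3 to 21 months ran from 0 to 0.407 rpmm with a median of 0.0483, and the 12 females from 0.0579 to 7.66 rpmm with a median of 4.59. Over 1 to 21 months 11 of 14 females were above every male of the 29. miR-483-3p was at 0 to 0.0875 rpmm in these adult males, median 0, and at 0 to 2.83 rpmm in the females, median 1.45. The differences of 1.74 ± 0.18 (adjusted p = 6.16e-10) and 1.03 ± 0.12 (adjusted p = 1.19e-08) for the 5p and 3p arm stand beside 1.98% of kidney miRNAs called. Both arms passed the filter in kidney only through libraries in which they are high. Of the 11 libraries with at least 1 rpmm of the 5p arm, 10 were of females of 3 to 21 months, as were 9 of the 10 of the 3p arm. The other in each case was labelled a male of 24 months, and 0 were of males of 1 to 21 months. An arm that enters the test in this way had to differ, so its call is no support by itself. With no filter the adjusted p was 1.04e-07 and 1.05e-07. Both passed under each of 12 other settings, with the plate as a covariate (adjusted p = 3.15e-05 and 0.000722), and without any 1 of the 43 libraries; without the library of 18 months named next they were 1.89 and 1.12.

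At 1 month, the 2 female kidneys held 0.120 and 0.940 rpmm of miR-483-5p and the 4 males 0 to 0.364, which overlap. The sex difference at 3 to 21 months exceeded that at 1 month by 1.51 ± 0.48 for the 5p and 1.13 ± 0.31 for the 3p arm, and neither passed (adjusted p 0.753 and 0.338, a test added after the data were seen). Levels in adult females spread widely, and 2 libraries go against their labels in both arms. Another, labelled female at 3 months, replicate 11, lay within the male range of miR-483-5p (0.231 rpmm) but above that of miR-483-3p (0.405 rpmm). The library labelled female at 18 months, replicate 16, had 0.0579 rpmm of miR-483-5p, and the library labelled male at 24 months, replicate 15, which lay outside the ages tested, had 5.19 rpmm, and 1.92 rpmm of the 3p arm. Fragments of Xist, the RNA of the inactive X chromosome, check the label weakly here, being above 0 in 9 of 12 libraries labelled female and 14 of 33 labelled male after 1 month. Replicate 16 had 0 reads of it, and replicate 15 the highest level among those labelled male (0.454 rpmm). Replicate 11 had the highest level among those labelled female (0.984 rpmm). The kidney markers summed to 6171 to 25941 rpmm in females and 3546 to 34492 rpmm in males.

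**Figure D4:**
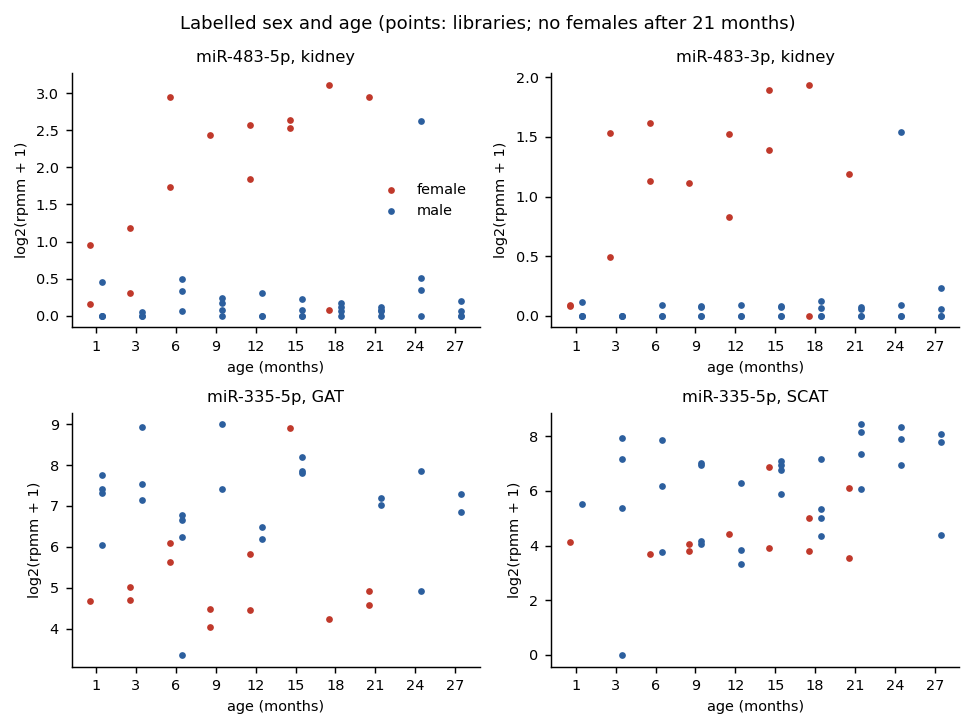
Levels of miR-483-5p and miR-483-3p in kidney and of miR-335-5p in GAT and SCAT, as log2(rpmm + 1), by age in months and labelled sex, with each point a library and no females after 21 months. Kidney miR-483-5p is at or near 0 in nearly all male libraries and reaches 7.66 rpmm in females, and GAT miR-335-5p has a median of 24.9 rpmm in females and 152 rpmm in males.

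In GAT the order was the other way for miR-335. miR-335-5p had a median of 24.9 rpmm in 13 females (15.5 to 480) and 152 rpmm in 20 males (9.27 to 511). The ranges overlap, with 1 female at 480 rpmm and 1 male at 9.27 rpmm well outside the rest of their sex; the next values were 67.8 rpmm in females and 64.8 rpmm in males. The difference was -1.72 ± 0.37 (adjusted p = 0.00158) and that of miR-335-3p -1.39 (adjusted p = 0.000741), beside 9.83% of GAT miRNAs called. In SCAT miR-335-3p had a median of 0.570 rpmm in 11 females and 2.79 rpmm in 27 males (difference -1.13, adjusted p = 0.0101), beside 11.7% called. The 5p arm there, 15.7 against 71.8 rpmm by the medians, did not pass (difference -1.53 ± 0.55, adjusted p = 0.0593).

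Marker levels differed between the sexes in these fat depots. The endothelial marker miR-126a-3p had a median of 8615 rpmm in female and 12896 in male GAT, and the 2 skin markers (miR-203-3p and miR-205-5p) summed to 867 to 3664 rpmm in female SCAT and 22.3 to 1978 rpmm in male SCAT. Their part in the miR-335 results was not tested. In skin, miR-335-5p was 0.58 higher in females (adjusted p = 0.0476), where 29.2% of all miRNAs were called. That call was lost in 5 of 10 other settings, and without any 1 of 22 of the 41 libraries.

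A test of each tissue's sex difference against the mean of the other 15, added after the data were seen, passed in 10 of 96 pairs, beside 4.6% of all miRNAs. The female excess was larger in kidney for miR-483-5p (1.83 ± 0.17, adjusted p = 2.8e-23) and miR-483-3p (1.10 ± 0.08, adjusted p = 9.34e-33). It was smaller in GAT and SCAT for miR-335-5p (-1.60 ± 0.33 and -1.40 ± 0.32, adjusted p 7.33e-05 and 0.000328). This fit too pools the spread of all tissues. miR-483-3p passed the filter in 2 tissues only and had little room to differ in the rest, so its result is no support by itself.

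In joined mice the question was whether the partner moved a member. The partners of HA mice were the HY mice, of another strain than the partners of IA mice. Age and strain of the partner therefore cannot be told apart in HA minus IA either. Aged mice with a young partner against aged mice with an aged one (HA minus IA) gave 0 of 15 pairs by limma, beside 0.965% of all miRNAs. It gave 0 by edgeR and 1 by DESeq2. Young mice with an aged partner against young mice with a young one (HY minus IY) gave 0 of 15 by limma, edgeR and DESeq2, none of them at an unadjusted p under 0.05, beside 0% of all miRNAs.

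The nearest to a call in aged mice was miR-335 in heart. miR-335-3p stood at 0.370, 0.608, 0.899, 1.02, 1.29, 1.41 and 1.48 rpmm in the 7 HA hearts and at 0.951 to 5.64 rpmm, median 2.00, in the 8 IA hearts, ranges that overlap. The difference was -0.64 ± 0.19 (adjusted p = 0.0630) and that of the 5p arm -0.49 ± 0.20 (adjusted p = 0.124). Without the 1 HA mouse and the 1 IA pair listed under another strain name than the rest, they were -0.73 and -0.62 and passed (adjusted p 0.0295 and 0.0485), and DESeq2 called the 3p arm (adjusted p = 0.00766). Without the IA heart at 5.64 rpmm, replicate 6B, the difference of the 3p arm was -0.48 (adjusted p = 0.146). MAT miR-335-5p was higher in HA than in IA by 1.36 ± 0.51, which did not pass (adjusted p = 0.189).

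Aged mice were also set against young ones. Within joined pairs of unlike age (HA minus HY) 3 of 15 pairs passed, all lower in the aged mice, beside 9.81% of all miRNAs. miR-335-5p in heart was at 19.4, 21.8, 22.3, 33.8, 33.8, 35.8 and 44.1 rpmm in HA and at 36.5, 44.6, 46.8, 48.3, 65.1, 76.4 and 79.9 rpmm in HY, overlapping through the highest HA heart (difference -0.89 ± 0.21, adjusted p = 0.00345). miR-335-3p was 0.70 lower (adjusted p = 0.0140), at 0.370 to 1.48 rpmm against 1.39 to 3.15. In kidney miR-335-5p was at 7.56, 9.73, 11.8, 12.4, 14.2 and 17.35 rpmm in HA and at 17.39 to 24.9 rpmm in HY, with no overlap (difference -0.69 ± 0.18, adjusted p = 0.00437).

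All 3 passed under every alternative that could be run and without any 1 library, in tissues where 19.6% (heart) and 22.7% (kidney) of miRNAs were called. In these kidneys the 2 leukocyte markers (miR-142a-3p and miR-155-5p) summed to 800.1 to 2028 rpmm in HA and 419 to 734 rpmm in HY, and the 2 fibroblast markers to 5332 to 8513 and 3075 to 4137 rpmm. In the hearts the skin markers summed to 48.9 to 58.6 rpmm in HA and 28.8 to 44.3 rpmm in HY. Their part was not tested, and strain and age cannot be told apart between HA and HY, since all HY mice are of the other strain.

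Between aged and young pairs of like age (IA minus IY) 1 of 15 pairs passed, beside 8.13% of all miRNAs. It was miR-335-5p in limb muscle, at 8.49, 9.74, 10.9, 11.4, 11.5, 12.8, 13.0 and 17.2 rpmm in IA and at 13.9, 14.2, 15.3, 18.3, 21.1, 23.6, 23.8 and 25.2 rpmm in IY (difference -0.66 ± 0.19, adjusted p = 0.0104), beside 14.5% of limb muscle miRNAs. With the pair number as a replicate block 3 of 15 passed, this one (adjusted p = 0.0210) and, in MAT, miR-335-3p (-0.55, adjusted p = 0.0317) and miR-335-5p (-1.30, adjusted p = 0.0327). One IA muscle lay within the IY range. The 4 lowest IY values are the 4 mice of 4.5 months, and against them alone the difference was -0.37 (adjusted p = 0.660). The same arm differed by -0.47 ± 0.16 in kidney (adjusted p = 0.0786) and by -0.07 ± 0.19 in heart (0.802). The IA and HA, and the IY and HY, groups enter more than 1 of these comparisons, so the comparisons are not independent.

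**Figure D5:**
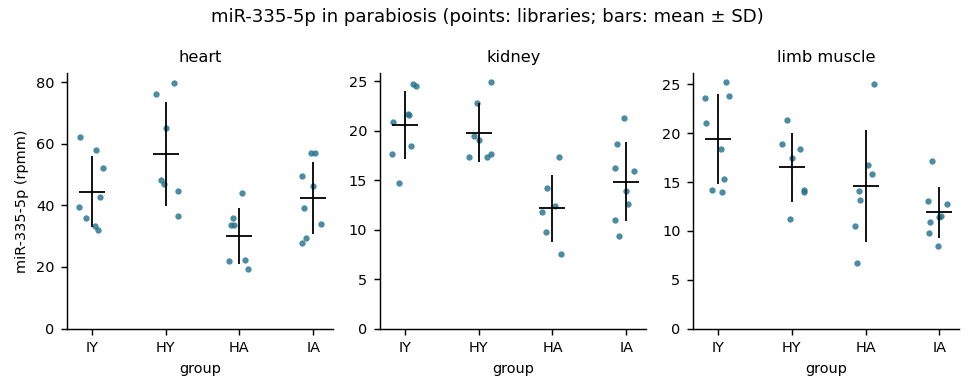
miR-335-5p in rpmm in heart, kidney and limb muscle of the 4 parabiosis groups (IY, HY, HA, IA), with each point a library and black bars the mean and SD. In kidney the HA mice end at 17.35 rpmm, just under the lowest HY mouse at 17.39 rpmm, and in limb muscle the IA mice lie between 8.49 and 17.2 rpmm.

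The arms of miR-483 and miR-675 passed in none of these comparisons by limma, and edgeR called both arms of miR-483 higher in limb muscle of HA than of HY mice (adjusted p 0.00820 and 0.0145). Without mouse 14A, an alternative chosen after seeing the data, edgeR called neither (adjusted p 0.424 and 0.533). In limb muscle miR-483-5p ran from 1.70 to 6.74 rpmm in 29 of 30 mice, and 1 HA mouse, replicate 14A, stood apart at 45.9 rpmm. The same mouse had the highest limb muscle level of miR-483-3p (8.14 rpmm), miR-675-5p (3.55 rpmm) and miR-675-3p (2.27 rpmm). Kidney miR-483-5p was at 0 to 0.333 rpmm in these 29 male kidneys.

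The miRNAs whose pattern was most like that of a member were found by Pearson's r among those past the filter in at least 8 tissues, as a description. Over the means of the 16 tissues, miR-675-5p ran closest with miR-1a-1-5p (0.889), miR-133b-3p (0.821) and miR-133a-5p (0.818), all known as muscle miRNAs. miR-483-5p ran closest with miR-3061-5p (0.847), miR-3102-5p.2-5p (0.764) and miR-149-5p (0.763), and miR-335-5p with miR-664-3p (0.888), miR-1843b-3p (0.843) and miR-125a-5p (0.834). Over the 160 groups of a tissue and an age, less the tissue mean, miR-483-5p came closest to miR-485-5p (0.682), miR-382-5p (0.679) and miR-300-5p (0.669), and miR-675-5p to miR-300-5p (0.701), miR-665-3p (0.697) and miR-127-5p (0.694). These 5 miRNAs all come from the imprinted Dlk1-Dio3 locus. miR-335-5p came closest to miR-322-3p (0.681), miR-450b-3p (0.662) and miR-450a-5p (0.625), which share a cluster on the X chromosome. miR-483-5p and miR-675-5p, whose hosts are neighbours, ran together at 0.782, and at 0.509 without the groups of 1 month.

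Other imprinted miRNAs give the members their setting. The Dlk1-Dio3 locus holds the Meg3, Rian and Mirg transcripts and a large cluster of miRNAs read from the maternal copy, and 100 of these of 52 stems were in the aging table; the Gnas locus gave 4, the arms of miR-296 and miR-298. At 1 month, 31 of 716 Dlk1-Dio3 tests were higher and 0 lower than at 3 months (median difference 0.46), and 10 of 36 Gnas tests were higher and 0 lower (median 0.75), against 0.866% of all miRNAs higher. The largest were miR-382-5p in limb muscle (2.14), miR-411-5p (2.05) and miR-296-5p (1.85) in pancreas, and miR-298-5p in skin (1.73). In limb muscle alone 17 of 72 Dlk1-Dio3 miRNAs were higher. At 21 months against 3 months, 83 of 704 Dlk1-Dio3 tests were lower and 5 higher, 66 of the lower ones in limb muscle, led by miR-136-3p (-3.91) and miR-376b-5p (-3.69). Of all miRNAs 1.62% were lower and 2.24% higher, and in limb muscle 17.4% were lower. The largest rise there was miR-1247-5p in bone (2.48), and Gnas miR-298-5p fell by 2.06 in marrow.

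In the joined mice, 97 of 272 Dlk1-Dio3 tests were lower in IA than in IY, beside 4.70% of all miRNAs. Of these 52 were in limb muscle, where 12.7% of all miRNAs were lower, led by miR-136-3p (-2.48) and miR-337-3p (-2.45). Between HA and HY, which also differ in strain, 65 of 272 were lower in HA, beside 4.30% of all. In HA against IA 5 of 272 were higher, beside 0.747% of all. All 5 were in GAT, where 3.22% of all miRNAs were higher, led by miR-540-5p (0.98) and miR-299a-5p (0.81). In HY against IY 0 of 272 passed. By sex, 80 of 828 Dlk1-Dio3 tests were lower and 15 higher in females, and 69 of the lower ones were in skin, led by miR-376b-3p (-2.31) and miR-411-3p (-1.78). Of all miRNAs 2.57% were lower and 1.88% higher in females, and in skin 16.3% were lower.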

How the data were processed

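Small RNA of whole tissue was sequenced as single-end reads (MGIEasy Small RNA kit, BGISEQ). Per the study's methods the authors counted reads with miRMaster (Bowtie, 1 mismatch allowed, miRBase, mm10) and dropped RNAs under 1 rpmm in every library, and kept libraries of at least 2 M aligned reads. The deposited signal values are rpmm, reads per M (mega) mapped reads, scaled by the authors, who kept 1 paralog of each miRNA. Over all RNAs given, a library summed to 207986 to 5.18e+06 rpmm in the aging and 1.44e+06 to 2.98e+06 rpmm in the parabiosis cohort. A level in rpmm is therefore not a share of the reads of a library. Of the aging columns, 2 were not used. The annotation tables gave plate names.

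Values were tested as log2(rpmm + 1), a scale that understates changes of low miRNAs, with limma 3.58.1 (trend, R 4.3.3) in each tissue, over miRNAs of at least 1 rpmm in 10% of its libraries, with Benjamini-Hochberg adjustment and a threshold of 0.05; p-values measure the spread between libraries. The fit across tissues treats libraries of a mouse as independent, as the labels do not tie them. Whole reads were recovered from the steps of rpmm for 98.97% (aging) and 98.84% (parabiosis) of miRNA values, within 0.05 reads, and tested with edgeR 4.0.16 and DESeq2 1.42.0 as alternatives. Other alternatives were 2 scalings, pseudocounts of 0.1 and 10 rpmm, filters, plate, males only, pair blocks and leaving out libraries. Tested on simulated data at 1 against 3 months in limb muscle (526 miRNAs), limma recovered 94.9% of log2 changes of 2, 53.7% of those of 1, and called 1.81% of unchanged miRNAs. The simulated spread was set alike for every miRNA, and libraries differed otherwise in depth only. These shares may not hold for the real libraries. Depth was 2.29 to 167 M reads, and a level of 3 reads was taken as the floor, for counting error only.

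Named miRNAs were the 6 members, the 3 most like each leading arm over tissues and over tissue-by-age means, and the 2 largest changes per direction of the Dlk1-Dio3 and Gnas lists. The members and lists were chosen with earlier results of these data known. Sequences and positions are from RefSeq (GRCm38.p6). The name of the strain of the HY mice is not reported here.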

Additional observations from a re-analysis of the deposited data

Results flagged for a closer look

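Single libraries were tested with Dixon's criterion on the rpmm of an arm, in the 60 parabiosis groups of the pairs past the filter and in 18 aging groups of 4 to 10 libraries behind the calls by age. Chance flags about 1 group in 20. No library of these aging groups and 8 values of the parabiosis groups stood apart. In HA limb muscle, replicate 14A was highest with 45.9 rpmm of miR-483-5p, 8.14 of miR-483-3p and 2.27 of miR-675-3p. Without it the limma differences of these arms between HA and HY were 0.24, 0.12 and -0.06 (adjusted p 0.513, 0.718 and 0.874). In heart, IA replicate 6B was highest for miR-335-3p (5.64 rpmm) and IA replicate 19A for miR-483-5p (1.98 rpmm). In limb muscle IA replicate 6B was lowest for miR-675-3p (0.120 rpmm), in GAT IA replicate 7A was lowest for miR-335-3p (0.0995 rpmm), and in MAT IY replicate 10A was highest for miR-335-5p (93.8 rpmm).

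The 15 results below were picked out because the effect in a tissue differed from the mean effect of the other tissues in a test of that difference (limma, log2 scale, 1 fit over all tissues). The test by sex was added after the data were seen. Both fits pool the spread of all tissues. miR-675-5p and miR-483-3p are under the filter in most tissues, so their p-values here are no support by themselves.

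For 1 month minus 3 months, the difference exceeded the mean of the other tissues in limb muscle by 1.53 for miR-675-5p, 1.17 for miR-483-3p and 1.79 for miR-483-5p (adjusted p 2.76e-24, 2.20e-07 and 7.37e-05). It did so in skin by 0.51 for miR-675-5p and in brain by 0.81 for miR-335-3p (adjusted p 0.0135 and 0.0380). The brain values, 2.03 to 10.8 rpmm at 1 month and 0.773 to 5.12 rpmm at 3 months, overlap. Of these results, miR-675-5p in limb muscle alone passed in the main test within its tissue.

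For females minus males, the difference stood above the mean of the other tissues in kidney by 1.83 for miR-483-5p, 1.10 for miR-483-3p and 0.81 for miR-335-5p (adjusted p 2.80e-23, 9.34e-33 and 0.0475), and in skin by 0.85 for miR-335-5p (0.0372). It stood below it in limb muscle, at -0.67 for miR-483-5p and -0.64 for miR-483-3p (0.00324 and 5.20e-11), in GAT, at -1.60 for miR-335-5p and -1.32 for miR-335-3p (7.33e-05 and 1.97e-11), and in SCAT, at -1.40 and -1.04 for the same arms (0.000328 and 8.12e-08). The limb muscle difference of miR-483-3p did not pass within that tissue (-0.61, adjusted p = 0.0698). Nor did that of miR-483-5p in limb muscle, or those of miR-335-5p in kidney and in SCAT, within their tissues.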

How the results depend on the processing

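No called pair of an arm and a tissue changed direction under the alternatives run. Calls were lost in 46 of 278 values under other settings and in 49 of 418 with 1 library left out; the cause was not tested except where fewer samples or miRNAs entered. At 1 against 3 months, 3 calls became 7 with DESeq2, 8 with the baseline of 3, 6 and 9 months, 8 with a pseudocount of 10 rpmm, 6 with no filter, and 0 with edgeR and with a pseudocount of 0.1 rpmm. At 21 against 3 months, 4 calls became 2 in males alone, 2 where the tissue mean had to reach 10 rpmm, which leaves fewer miRNAs, and 2 with a pseudocount of 10 rpmm. Over the later ages 9 became 22 with DESeq2, 15 with miRNA-read scaling and 4 under that limit of 10 rpmm, and by sex 6 became 2 under it. Without libraries under 5 M reads, chosen after seeing the data, 1 against 3 months gave 6 and sex 10 calls. HA minus IA rose from 0 to 2 without the 3 aged mice listed under another strain name and 1 with DESeq2. IA minus IY went from 1 to 3 with DESeq2, 2 with median-ratio scaling, 2 with no filter and 0 against the 4.5-month IY mice. HA minus HY went from 3 to 5 with edgeR, and was at 3 with edgeR without mouse 14A, chosen after seeing the data. The rho count of 2 became 4 in males, 4 with either scaling, 1 with plate means removed, 1 without the 1-month libraries, and 8 by the adjusted permutation p. The 5 tissue differences at 1 month became 8 with either scaling. The share of all miRNAs called under each of these settings is not reported here. Such counts therefore do not show whether members moved more than other miRNAs.

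With 1 library left out, calls ranged from 2 to 5 at 1 against 3 months, from 3 to 5 at 21, from 7 to 10 over the later ages, from 5 to 8 by sex, from 0 to 1 for HA minus IA, from 1 to 3 for IA minus IY, and stayed at 3 for HA minus HY and 0 for HY minus IY.

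Partners of a pair deviated together (r over 0.1) in 25 of 39 heterochronic and 13 of 47 isochronic pairs of libraries. In liver all 7 heterochronic pairs were over it. Joined mice are not 1 animal and not every pair was over 0.1, so the main test has no block. With the replicate block, HA minus HY kept a count of 3, IA minus IY gave 3, with miR-335-3p and miR-335-5p in MAT beside limb muscle, and HA minus IA and HY minus IY gave 0. In the aging mice no paired analysis was possible because the labels give no number that marks a mouse.

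Scaling to miRNA reads shifted the median of all miRNAs by over 0.1 in 12 of 14 tissues at 1 against 3 months, from -0.51 to 0.94. Depth limits many of the low levels, for example miR-483 in liver and pancreas and miR-675 in brain and kidney, where the median library held 0 reads of either arm.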
